A study of Mus musculus with 8 samples.

Results

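Foxp3-KO preTreg, precursors of regulatory T cells from mice without a working Foxp3, were compared with WT Tconv, wild-type conventional T cells, both sorted from the CD4 single-positive cells of the mouse thymus. The comparison rests on 4 of the 8 one-colour microarrays of the series, 2 Foxp3-KO and 2 WT Tconv, taken by their titles. Foxp3-KO preTreg carry the genotype Foxp3-KO and were gated on a Foxp3 reporter and on high CD25. WT Tconv carry the wild-type genotype and were gated as low in CD25. WT Treg, wild-type cells gated as Foxp3-positive, had 2 arrays and are used below as the other wild-type reference. The remaining 2 arrays, of Nr4a-TKO preTreg, entered only the estimate of spread. All cells were CD4 single-positive, were lysed fresh and gave 10 ng of RNA for labelling. Each group held 2 biological replicates according to the design. The sources used here give no strain, age, reporter construct or deleted part of Foxp3. No wild-type precursor was measured, so genotype and sort gate change together and cannot be told apart. Of 21153 genes with a probe, 12810 were well above background on both arrays of at least 1 of the 2 groups and were tested. A gene not well above background in 1 group was thus tested only where the other group was. This filter partly sets the direction of the difference of such genes.

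Foxp3 is the X-linked transcription factor that regulatory T cells depend on. In the thymus, their precursors arise among CD4 single-positive cells that bind self-antigen strongly. Strong T cell receptor signals induce Nr4a nuclear receptors, TNF receptors such as GITR and OX40, and CD25, the high-affinity chain of the IL-2 receptor. IL-2 then acts through STAT5, and NF-kB acts downstream of the antigen receptor, CD28 and the TNF receptors. Foxp3 is known to raise CD25 and CTLA-4 and to restrain cytokine genes.

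The Foxp3-KO cells carried much of the expression that marks regulatory T cells, at levels between WT Tconv and WT Treg for several of its best-known genes. They also differed from each other. Levels are log2 signal relative to the 75th percentile of the array, and each pair of values gives replicate 1 and then replicate 2. A difference is the Foxp3-KO mean minus the WT Tconv mean, with the standard error from a limma fit that pools the spread over all 4 groups. A gene was called at a Benjamini-Hochberg adjusted p under 0.05 over all genes tested. Of 12810 genes, 3538 (27.6%) were called, 1358 higher (10.6%) and 2180 lower (17.0%) in Foxp3-KO. Every list compared with WT Tconv below is to be read beside these 10.6% and 17.0%. At least 2-fold differences were called for 1028 genes (8.02%), 745 higher (5.82%) and 283 lower (2.21%). The median difference of all genes was -0.12. Both Foxp3-KO arrays lay above both WT Tconv arrays for 3010 genes (23.5%) and below both for 6084 (47.5%), so a lack of overlap is common here. Median scaling shifted the differences by -0.14, and 1083 genes were then called higher and 4138 lower, so that small decreases depend on the scaling. The count also depended on the WT Tconv arrays, whose replicates differed least: it was 570 without WT Tconv replicate 1 and 614 without replicate 2, and 1767 in a fit of only the 4 arrays. Of 174 genes that the naming rule chose and that were called, 95 lost the call without WT Tconv replicate 1 and 95 without replicate 2. Where an alternative setting ended the call of a gene, the highest adjusted p over those settings follows its own. The p-values rest on the spread between arrays pooled over all 4 groups. Foxp3-KO had the widest spread of the 4, so the pooled value can understate it. WT Tconv and Foxp3-KO lay in different rows of the 1 slide, and slide position and group therefore cannot be told apart. In CD4 T cell identity genes, 1 of 14 tested were called higher and 4 lower, with a median difference of -0.26, and all 14 were well above background on each of the 4 arrays. Cd3e measured 6.90 and 6.90 in Foxp3-KO and 7.07 and 7.07 in WT Tconv. Cd4 measured 5.04 and 5.27 against 5.47 and 5.48. With 1 array left out there were 0 to 1 higher and 0 to 8 lower, the fewest lower without either WT Tconv array and the most lower without Foxp3-KO replicate 2.

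The 2 Foxp3-KO arrays are given separately throughout because they differed. Over the genes tested, the root mean square of the SD between replicates was 0.392 in Foxp3-KO and 0.147 in WT Tconv. More than 2-fold gaps between replicates separated 752 genes (5.87%) in Foxp3-KO and 82 (0.64%) in WT Tconv. On its own, replicate 1 was at least 2-fold above both WT Tconv arrays for 1069 genes (8.35%) and below both for 487 (3.8%). Replicate 2 was above both for 755 (5.89%) and below both for 392 (3.06%). Both arrays lay above for 682 genes (5.32%) and below for 199 (1.55%), while 24 genes (0.187%) were above on one array and below on the other. A lone array of a group shows no spread of its own and is taken to vary like the other groups. Counts from fits with such an array are given only to show how far the calls depend on single arrays. Fits that kept 1 Foxp3-KO array called 1608 genes higher (12.6%) and 2660 lower (20.8%) for replicate 1, and 1112 higher (8.68%) and 1487 lower (11.6%) for replicate 2. Of these, 894 were higher and 1078 lower with either array.

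Foxp3 itself was read first. For Foxp3 the Foxp3-KO arrays read 1.79 and 1.58 and the WT Tconv arrays -3.57 and -3.95, which differ by 5.44 ± 0.22 (adjusted p = 0.000234). WT Treg read 4.84 and 4.56, and Foxp3-KO differed from them by -3.02 ± 0.22 (adjusted p = 0.00588, not called in 1 of 20 alternatives, up to 0.062). The Foxp3 probe was therefore far above WT Tconv and below WT Treg on both Foxp3-KO arrays. Because the deleted part is not known here, that probe may lie outside it and check no genotype. The gate selected on a Foxp3 reporter and on CD25, so these 2 genes are set by the sort as well. Il2ra, which encodes CD25, measured 4.06 and 3.56 on the Foxp3-KO arrays and -1.74 and -1.95 on the WT Tconv arrays, a difference of 5.66 ± 0.22 (adjusted p = 0.000215). Relative to WT Treg, Il2ra differed by -1.87 ± 0.22 (adjusted p = 0.0122, not called in 3 of 20 alternatives, up to 0.0893).

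Among surface and effector genes of regulatory T cells, 23 of 41 tested were called higher and 1 lower, with a median difference of 1.57. Here the background is 10.6% higher and 17.0% lower. Leaving out single arrays gave 17 to 33 higher and 0 to 6 lower, the fewest lower without either WT Tconv array and the most lower without Foxp3-KO replicate 1. By array, the median differences were 2.06 on replicate 1 and 1.19 on replicate 2. Another 7 listed genes were not tested. Of these, Tigit, Klrg1, Entpd1, Gpr15, Il10 and Areg were well above background on Foxp3-KO replicate 1 and both WT Treg arrays. They were not on replicate 2 or on WT Tconv. Tigit measured -0.90 and -4.32 on the Foxp3-KO arrays. Lrrc32, which displays latent TGF-beta on the cell surface, measured 4.30 and 4.07 on the Foxp3-KO arrays and -3.32 and -4.27 on the WT Tconv arrays, a difference of 7.98 ± 0.48 (adjusted p = 0.00057). Ctla4, the co-inhibitory receptor CTLA-4, stood at 0.97 and 0.24 against -3.32 and -3.85 (4.19 ± 0.32, adjusted p = 0.00131). Tnfrsf4, the TNF receptor OX40, stood at 6.80 and 6.57 against 4.48 and 4.52 (2.19 ± 0.11, adjusted p = 0.000345). Both arrays of Foxp3-KO were far above both of WT Tconv in these genes, and the next 3 had the same separation. Tnfrsf18, the TNF receptor GITR, stood at 6.39 and 6.22 against 4.70 and 4.78 (1.57 ± 0.11, adjusted p = 0.000818). Cd83, a surface protein that stabilises MHC class II, stood at 3.66 and 2.82 against -2.16 and -2.32 (5.48 ± 0.29, adjusted p = 0.000379). Nrp1, neuropilin 1, a marker of regulatory T cells made in the thymus, stood at -0.87 and -2.33 against -4.15 and -3.58 (2.26 ± 0.47, adjusted p = 0.0212, not called in 3 of 20 alternatives, up to 0.12). Itgb8, the integrin chain that helps activate TGF-beta, measured -2.50 and -3.25 on the Foxp3-KO arrays, was not well above background on either WT Tconv array, and was at least 4.4-fold higher (adjusted p = 0.00265). Not every gene of the group was raised. For Gpr83, an orphan receptor of regulatory T cells, the Foxp3-KO arrays read -2.54 and -2.31 and the WT Tconv arrays -1.43 and -1.42, which differ by -1.0 ± 0.22 (adjusted p = 0.0256, not called in 6 of 20 alternatives, up to 0.123). Izumo1r, folate receptor 4, stood at 2.76 and 2.71 against 2.97 and 2.97 (-0.24 ± 0.09, adjusted p = 0.105). Relative to WT Treg, Gpr83 differed by -2.05 ± 0.22 (adjusted p = 0.0102, not called in 1 of 20 alternatives, up to 0.103) and Izumo1r by -0.99 ± 0.09 (adjusted p = 0.00718, not called in 1 of 20 alternatives, up to 0.094). In the plot of regulatory T cell genes, these 2 lie at or below WT Tconv on the Foxp3-KO arrays, while most others lie well above.

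**Figure D1:**
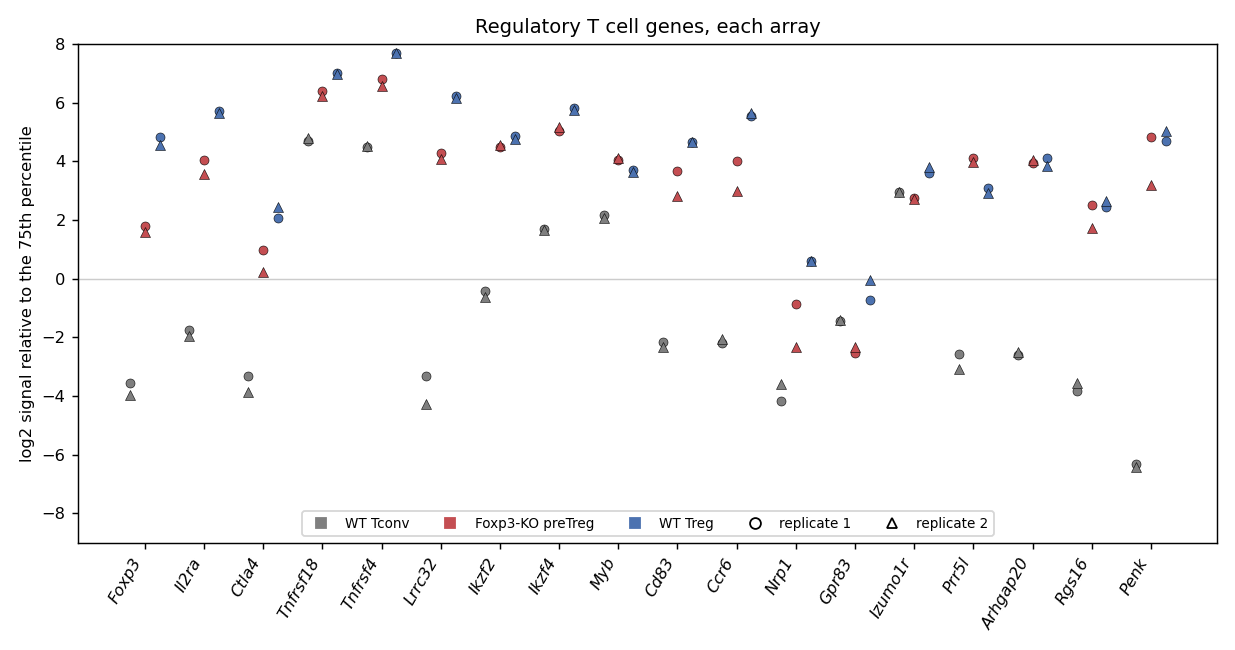
Levels of 18 genes on the 6 arrays of WT Tconv (grey), Foxp3-KO preTreg (red) and WT Treg (blue), as log2 signal relative to the 75th percentile of each array, with circles for replicate 1 and triangles for replicate 2. Lrrc32 sits at 4.30 and 4.07 on the Foxp3-KO arrays and -3.32 and -4.27 on the WT Tconv arrays, while Gpr83 sits at -2.54 and -2.31 on the first and -1.43 and -1.42 on the second, and Penk was not well above background in WT Tconv.

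Several transcription factors of the lineage were higher. Of these genes, 8 of 27 tested were called higher and 3 lower, with a median difference of 0.16, beside 10.6% and 17.0% of all genes. The higher ones include Foxp3, whose reporter the gate used. Over the fits that lacked 1 array there were 6 to 11 higher and 1 to 5 lower, the fewest lower without either WT Tconv array and the most lower without Nr4a-TKO replicate 1 or Nr4a-TKO replicate 2 or Foxp3-KO replicate 2. Ikzf2, which encodes Helios, a factor of thymic regulatory T cells, measured 4.48 and 4.57 on the Foxp3-KO arrays and -0.42 and -0.62 on the WT Tconv arrays, a difference of 5.04 ± 0.15 (adjusted p = 0.000106). Ikzf4, which encodes Eos, a partner of Foxp3, stood at 5.03 and 5.17 against 1.70 and 1.64 (3.42 ± 0.16, adjusted p = 0.000303). The differences of its 3 probes ran from 0.60 to 3.45. Myb, a factor of thymocytes and effector regulatory T cells, stood at 4.04 and 4.10 against 2.17 and 2.08 (1.94 ± 0.11, adjusted p = 0.000402). WT Treg read 4.88 and 4.78 for Ikzf2, and Foxp3-KO differed from them by -0.30 ± 0.15 (adjusted p = 0.264). Gata3, Irf4 and Maf, which other T helper programmes share, did not follow these 3. Gata3 measured 3.92 and 3.92 and 4.23 and 4.16 (difference -0.28 ± 0.07 (adjusted p = 0.0335, not called in 10 of 20 alternatives, up to 0.19)), and Irf4 1.96 and 1.93 and 2.09 and 2.13 (difference -0.17 ± 0.07 (adjusted p = 0.119)). For Maf the 2 Foxp3-KO arrays fell on either side of WT Tconv, at 2.20 and -0.48 against 0.40 and 0.56.

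The 15 largest increases among genes above background on all 4 arrays held, beside Lrrc32, Il2ra, Cd83, Foxp3 and Ikzf2, several signalling and surface genes. For Prr5l, which encodes a component of mTOR complex signalling, the Foxp3-KO arrays read 4.11 and 3.96 and the WT Tconv arrays -2.58 and -3.08, which differ by 6.86 ± 0.21 (adjusted p = 0.000106). Prr5l was above WT Treg as well, by 1.03 ± 0.21 (adjusted p = 0.0481, not called in 13 of 20 alternatives, up to 0.206). Arhgap20, a GTPase-activating protein, stood at 3.95 and 4.06 against -2.61 and -2.50 (6.55 ± 0.20, adjusted p = 0.000106). Nrp2, neuropilin 2, a semaphorin receptor, stood at 2.81 and 2.77 against -4.03 and -3.28 (6.44 ± 0.42, adjusted p = 0.000776). Rgs16, a regulator of G protein signalling, stood at 2.52 and 1.73 against -3.82 and -3.55 (5.82 ± 0.29, adjusted p = 0.000345). These genes separated the groups without overlap, and the Foxp3-KO arrays lay within 1 log2 unit of each other for each. For Ccr6, the receptor for CCL20, the Foxp3-KO arrays read 4.01 and 3.0 and the WT Tconv arrays -2.20 and -2.05, which differ by 5.63 ± 0.33 (adjusted p = 0.00053). Kit, the stem cell factor receptor, stood at 2.02 and 1.59 against -3.69 and -3.62 (5.46 ± 0.24, adjusted p = 0.000254). Lad1, an anchoring-filament protein of epithelia, stood at 1.66 and 2.22 against -3.54 and -3.47 (5.45 ± 0.20, adjusted p = 0.000173). Gm4956 stood at 4.80 and 4.71 against -1.60 and -1.82 (6.47 ± 0.27, adjusted p = 0.000234). The last 2, Ear2 and Lyz1, are myeloid genes and were uneven between replicates. Ear2, an eosinophil-associated ribonuclease, stood at 3.02 and 1.05 against -4.06 and -3.91 (6.03 ± 0.95, adjusted p = 0.0107, up to 0.0718 without either WT Tconv array). Lyz1, a lysozyme, stood at 3.23 and 1.09 against -3.78 and -2.24 (5.17 ± 0.99, adjusted p = 0.0176, not called in 4 of 20 alternatives, up to 0.103). Replicate 1 was the higher array for both.

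Some genes reached background in WT Tconv, so their fold is a lower bound. There the mean of the Foxp3-KO arrays was set against the lowest signal well above background on each WT Tconv array, or against the probe's own signal where that was higher. Penk, the enkephalin precursor, measured 4.84 and 3.21 on the Foxp3-KO arrays, was not well above background on either WT Tconv array, and was at least 523-fold higher (adjusted p = 0.000345). Pdzk1ip1, a small membrane protein, measured 1.89 and 1.32 on the Foxp3-KO arrays, was not well above background on either WT Tconv array, and was at least 80.6-fold higher (adjusted p = 0.000345). That bound holds for its brightest probe, as another Pdzk1ip1 probe differed by only 3.79 in log2 units. Vcam1, a vascular and stromal adhesion molecule, measured 2.90 and -0.08 on the Foxp3-KO arrays, was not well above background on either WT Tconv array, and was at least 63.1-fold higher (adjusted p = 0.0149, up to 0.0941 without either WT Tconv array). Replicate 1 of Foxp3-KO was the higher array in each of these 3. In the other direction, some genes were well above background in WT Tconv and on neither Foxp3-KO array. Dmbt1, a secreted scavenger protein, measured -1.17 and -1.44 on the WT Tconv arrays, was not well above background on either Foxp3-KO array, and was at least 6.72-fold lower (adjusted p = 0.000106). Fzd10, a Wnt receptor, measured -1.90 and -1.45 on the WT Tconv arrays, was not well above background on either Foxp3-KO array, and was at least 5.21-fold lower (adjusted p = 0.00663, up to 0.0544 without 1 WT Tconv array). Fam110b measured -1.87 and -1.66 on the WT Tconv arrays, was not well above background on either Foxp3-KO array, and was at least 4.88-fold lower (adjusted p = 0.00488). The bounds for decreases are smaller, and the WT Tconv levels of these genes lay closer to background. Jchain and C1qc, which had large bounds too, are given with the markers of other cells, and Gpr153 and Cdh13, the other 2 large decreases, were at least 4.37-fold (adjusted p = 0.0488, not called in 11 of 19 alternatives, up to 0.178) and 4.14-fold lower (adjusted p = 0.00943, up to 0.0675 without either WT Tconv array).

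The leading decreases included type 2 cytokine and migration genes. Ccr10, a chemokine receptor of skin-homing and mucosal lymphocytes, measured -1.25 and -1.03 on the Foxp3-KO arrays and 1.86 and 1.91 on the WT Tconv arrays, a difference of -3.02 ± 0.11 (adjusted p = 0.000173). Il13, a type 2 cytokine, stood at -3.39 and -3.47 against -0.91 and -0.69 (-2.63 ± 0.10, adjusted p = 0.00019). Il17rb, the IL-25 receptor, stood at 0.32 and 0.74 against 3.05 and 2.96 (-2.47 ± 0.17, adjusted p = 0.000901). For these 3 genes both Foxp3-KO arrays lay more than 2 log2 units below both WT Tconv arrays. Zbtb16, a factor of innate-like T cells given below, was lower as well. The part of such cells in these decreases was not tested. For Susd4, a complement regulator, the Foxp3-KO arrays read -3.12 and -3.44 and the WT Tconv arrays 0.03 and -0.32, which differ by -3.14 ± 0.20 (adjusted p = 0.000708). Neb, nebulin, a sarcomere protein, stood at -1.36 and -2.14 against 1.34 and 1.37 (-3.10 ± 0.35, adjusted p = 0.00444). Acacb, an acetyl-CoA carboxylase, stood at -2.52 and -2.66 against 0.12 and -0.12 (-2.59 ± 0.11, adjusted p = 0.000254). Zfp536 stood at -2.41 and -2.64 against 0.02 and -0.20 (-2.44 ± 0.27, adjusted p = 0.00437). Lipid and matrix enzymes were also among them. Elovl7, a fatty acid elongase, stood at -2.15 and -1.47 against 0.66 and 0.71 (-2.49 ± 0.26, adjusted p = 0.00368). P4ha2, a collagen prolyl hydroxylase, stood at -3.45 and -1.74 against 0.68 and 0.72 (-3.30 ± 0.73, adjusted p = 0.0248, not called in 5 of 20 alternatives, up to 0.119). The other 6 were Trnp1, Pdlim4, Nsg1, Trpm6, Ppp1r1b and Igfbp4, the last of which is given with conventional T cell genes. Trnp1 had the largest decrease and the least even replicates, at -1.43 and -3.87 against 1.86 and 1.75 (difference -4.46 ± 1.24 (adjusted p = 0.0464, not called in 11 of 20 alternatives, up to 0.177)). Pdlim4, a LIM-domain protein, stood at 0.41 and 0.45 against 3.17 and 3.14 (difference -2.73 ± 0.39 (adjusted p = 0.00825, up to 0.0611 without either WT Tconv array)). The remaining 3 differed by -2.50 ± 0.40 (adjusted p = 0.0107, up to 0.0738 without either WT Tconv array) for Nsg1, -2.42 ± 0.46 (adjusted p = 0.0173, not called in 3 of 20 alternatives, up to 0.103) for Trpm6 and -2.22 ± 0.57 (adjusted p = 0.0385, not called in 8 of 20 alternatives, up to 0.16) for Ppp1r1b.

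TNF receptor and NF-kB genes were mostly called higher. Of them, 21 of 40 tested were called higher and 4 lower, with a median difference of 0.39, against 10.6% and 17.0% of all genes. The range with 1 array removed was 12 to 22 higher and 2 to 5 lower, the fewest higher without WT Tconv replicate 2 and the fewest lower without either WT Tconv array. The promoters of 1 subunit and 2 inhibitors of the pathway are shown first, since many genes of this group rose. They were chosen after their values were seen, as called members whose promoter holds a sequence of the kappa B type. Each window runs from 250 bases before to 50 after the start of the gene, is taken from RefSeq and is written 5′ to 3′ along the gene. Capitals mark each match to GGNNTTTCC on either strand. Nfkb2 has 3 windows, each with a match, and Tnfaip3 has 2, of which 1 has a match. For each gene, 1 window with a match is printed.
Nfkbia, GRCm38.p6 chr12:55492598-55492897, minus strand: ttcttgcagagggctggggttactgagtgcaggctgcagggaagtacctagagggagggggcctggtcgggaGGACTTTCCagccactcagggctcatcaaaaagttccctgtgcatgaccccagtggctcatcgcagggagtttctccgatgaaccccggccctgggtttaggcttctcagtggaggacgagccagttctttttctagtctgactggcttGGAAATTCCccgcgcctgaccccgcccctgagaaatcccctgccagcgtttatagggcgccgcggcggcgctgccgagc
Nfkb2, GRCm38.p6 chr19:46304487-46304786, plus strand: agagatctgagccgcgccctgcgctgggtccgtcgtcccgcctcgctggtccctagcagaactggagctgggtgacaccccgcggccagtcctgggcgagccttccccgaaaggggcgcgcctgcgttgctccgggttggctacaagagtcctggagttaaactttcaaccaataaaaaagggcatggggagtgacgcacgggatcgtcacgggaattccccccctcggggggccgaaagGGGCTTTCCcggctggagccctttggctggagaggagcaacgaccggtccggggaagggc
Tnfaip3, GRCm38.p6 chr10:19015361-19015660, minus strand: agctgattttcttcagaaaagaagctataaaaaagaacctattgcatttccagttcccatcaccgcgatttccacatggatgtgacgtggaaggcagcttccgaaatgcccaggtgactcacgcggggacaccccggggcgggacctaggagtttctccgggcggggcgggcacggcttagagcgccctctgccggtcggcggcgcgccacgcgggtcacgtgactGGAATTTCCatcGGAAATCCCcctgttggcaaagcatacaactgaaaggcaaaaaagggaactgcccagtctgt

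The motif GGNNTTTCC, the only one searched and read on both strands, was in 5.82% of the 32851 promoter windows. By gene, 1790 of 27025 held it (6.62%), and 109 of the 1069 genes that were called higher and had a window (10.2%). Of 42 listed TNF receptor and NF-kB genes 34 had a window and 10 held the motif. Among those 10, 6 were called higher, 0 lower, 3 were not called and 1 was not tested. A match is a run of letters and not a bound site, and the list was chosen for NF-kB, so no test was made.

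The subunits and inhibitors came first among the called members. For Nfkb2, the p100 subunit that the non-canonical pathway processes, whose promoter is printed above, the Foxp3-KO arrays read 2.40 and 2.56 and the WT Tconv arrays 1.48 and 1.56, which differ by 0.96 ± 0.08 (adjusted p = 0.00185). Nfkbia, the inhibitor that traps NF-kB in the cytoplasm, measured 6.55 and 6.69 against 5.74 and 5.81 (difference 0.84 ± 0.08, adjusted p = 0.00306). Tnfaip3, the ubiquitin editor A20 that ends the signal, measured 3.56 and 3.81 against 2.93 and 3.0 (difference 0.72 ± 0.17, adjusted p = 0.0286, not called in 5 of 20 alternatives, up to 0.142). All 3 printed genes lay above WT Tconv on both Foxp3-KO arrays, but they had been chosen with these values known. Of the receptors, OX40 and GITR are given above, and Tnfrsf25 joined them. Tnfrsf25, death receptor 3, stood at 5.71 and 5.49 against 4.44 and 4.36 (1.20 ± 0.09, adjusted p = 0.00133). Going the other way, Tnfrsf10b fell. Tnfrsf10b, the TRAIL receptor, stood at -0.97 and -0.85 against 0.02 and 0.06 (-0.95 ± 0.08, adjusted p = 0.00198). Of TNF ligands, 6 of 14 tested were called higher and 2 lower, with a median difference of 0.54. Dropping each array in turn gave 2 to 10 higher and 0 to 3 lower, the fewest higher without either WT Tconv array and the most higher without Foxp3-KO replicate 2. For Lta, lymphotoxin alpha, the Foxp3-KO arrays read 2.82 and 2.69 and the WT Tconv arrays 1.09 and 1.16, which differ by 1.63 ± 0.11 (adjusted p = 0.000791). Tnf stood at 1.1 and 0.58 against 1.48 and 1.51 (-0.65 ± 0.17, adjusted p = 0.041, not called in 9 of 20 alternatives, up to 0.169). Tnfsf4, the ligand of OX40, measured -2.83 and -3.19 on the Foxp3-KO arrays, was not well above background on either WT Tconv array, and was at least 4-fold higher (adjusted p = 0.00225). Cd70, the ligand of CD27, measured -1.02 and -3.33 on the Foxp3-KO arrays, was not well above background on either WT Tconv array, and was at least 7.15-fold higher (adjusted p = 0.0114, not called in 3 of 19 alternatives, up to 0.0757). The cytokine TNF and lymphotoxin were called in opposite directions.

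Several IL-2 pathway genes besides Il2ra were called higher. In the list of IL-2 receptor, STAT5 and SOCS genes, 9 of 28 tested were called higher and 4 lower, with a median difference of -0.01. These stand beside 10.6% and 17.0% of all genes, and the higher ones include Il2ra, on which the gate selected. When 1 array was removed at a time, there were 4 to 9 higher and 1 to 6 lower, the fewest higher without either WT Tconv array and the fewest lower without either WT Tconv array. Il2rb, the shared beta chain of the IL-2 and IL-15 receptors, measured 6.04 and 5.24 on the Foxp3-KO arrays and 4.09 and 4.11 on the WT Tconv arrays, a difference of 1.54 ± 0.25 (adjusted p = 0.0119, not called in 3 of 20 alternatives, up to 0.0766). Stat5a, the signal transducer of IL-2, stood at 3.82 and 3.97 against 2.75 and 2.69 (1.18 ± 0.11, adjusted p = 0.00239). Cish, a STAT5 target that limits cytokine signals, stood at 4.24 and 4.03 against 2.27 and 2.21 (1.90 ± 0.10, adjusted p = 0.000379). Socs5 stood at -0.34 and -0.51 against -2.20 and -1.98 (1.66 ± 0.10, adjusted p = 0.00067). Alongside these increases, the receptor for IL-7 was lower. For Il7r, the IL-7 receptor of conventional T cells, the Foxp3-KO arrays read 3.66 and 3.36 and the WT Tconv arrays 5.18 and 5.18, which differ by -1.67 ± 0.25 (adjusted p = 0.00899, up to 0.0644 without either WT Tconv array). The survival gene Bcl2, also a STAT5 target, measured 4.17 and 4.32 against 4.68 and 4.86 (difference -0.52 ± 0.19 (adjusted p = 0.0899)).

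Genes of the early T cell receptor response were higher in part. Of these, 11 of 32 tested were called higher and 1 lower, with a median difference of 0.13. Refitting without single arrays gave 6 to 14 higher and 0 to 4 lower, the fewest higher without WT Tconv replicate 2 and the most lower without Foxp3-KO replicate 1. Nr4a2, an Nr4a nuclear receptor, measured 1.68 and 1.09 on the Foxp3-KO arrays and -1.68 and -1.72 on the WT Tconv arrays, a difference of 3.08 ± 0.20 (adjusted p = 0.000743). Its relatives were less clear. Nr4a1, also called Nur77, stood at 6.99 and 7.44 against 6.67 and 6.68 (0.54 ± 0.19, adjusted p = 0.0842). Nr4a3 stood at -1.06 and -0.50 against -1.70 and -1.72 (0.93 ± 0.45, adjusted p = 0.17). Egr1, an immediate-early factor, stood at 3.93 and 4.18 against 4.41 and 4.37 (-0.34 ± 0.11, adjusted p = 0.0757). For Irf8, an interferon regulatory factor, the Foxp3-KO arrays read 3.47 and 3.06 and the WT Tconv arrays 0.81 and 0.87, which differ by 2.42 ± 0.23 (adjusted p = 0.00242). Rgs1, a regulator of G protein signalling, stood at 3.09 and 2.50 against -0.53 and -0.42 (3.27 ± 0.22, adjusted p = 0.000791). Tagap, a GTPase-activating protein of activated T cells, stood at 3.44 and 3.36 against 2.42 and 2.32 (1.03 ± 0.07, adjusted p = 0.00104). In ERK feedback genes, 2 of 13 tested were called higher and 2 lower, with a median difference of -0.03, beside 10.6% and 17.0% of all genes. A pair of phosphatases in that list went opposite ways. Dusp4, a nuclear MAP kinase phosphatase, stood at 1.63 and 1.19 against -2.86 and -2.53 (4.11 ± 0.19, adjusted p = 0.000298). Dusp6, a cytoplasmic ERK phosphatase, stood at 3.88 and 4.01 against 4.51 and 4.56 (-0.59 ± 0.08, adjusted p = 0.00673, up to 0.0615 without either WT Tconv array). Spry1, a Sprouty inhibitor of ERK, stood at 1.54 and 1.02 against -2.20 and -2.36 (3.56 ± 0.24, adjusted p = 0.000791). Omitting 1 array at a time gave 2 to 3 higher and 0 to 3 lower, the fewest lower without either WT Tconv array.

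The signalling chain next to the antigen receptor held more decreases than increases. Of proximal T cell receptor genes, 5 of 35 tested were called higher and 11 lower, with a median difference of -0.24, beside 10.6% and 17.0% of all genes. These counts ran, with 1 array left out, from 1 to 4 higher and 0 to 15 lower, the fewest higher without either WT Tconv array and the fewest lower without either WT Tconv array. With median scaling 2 were higher and 18 lower. Txk, a Tec family kinase, stood at 3.69 and 3.93 against 4.62 and 4.60 (-0.80 ± 0.11, adjusted p = 0.00733, up to 0.0604 without either WT Tconv array). Grap2, the adaptor GADS, stood at 3.25 and 3.52 against 4.05 and 4.03 (-0.65 ± 0.11, adjusted p = 0.0114, not called in 3 of 20 alternatives, up to 0.0794). Tec, another kinase of that family, stood at 0.25 and 0.14 against -1.04 and -1.23 (1.33 ± 0.14, adjusted p = 0.00348). Tec and Txk, which are related, were thus called in opposite directions. Pag1, an adaptor that recruits Csk, stood at -3.76 and -3.45 against -2.51 and -2.49 (-1.11 ± 0.18, adjusted p = 0.0118, up to 0.0782 without either WT Tconv array, well above background on 1 Foxp3-KO array). Of ubiquitin ligases and diacylglycerol kinases linked to tolerance, 1 of 13 tested were called higher and 1 lower, with a median difference of 0.11. Cblb, the ligase CBL-B, a brake on costimulation, stood at 2.62 and 2.44 against 1.35 and 1.47 (1.12 ± 0.13, adjusted p = 0.00513). Nedd4, another ubiquitin ligase, stood at 0.27 and 0.61 against 1.53 and 1.53 (-1.09 ± 0.16, adjusted p = 0.00921, up to 0.0661 without either WT Tconv array). With 1 array left out there were 1 to 3 higher and 0 to 3 lower, the most higher without Foxp3-KO replicate 2, the fewest lower without either WT Tconv array and the most lower without Foxp3-KO replicate 1.

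Co-inhibitory receptors were mostly called higher. Of these, 11 of 19 tested were called higher and 2 lower, with a median difference of 0.56. Leaving out single arrays gave 3 to 11 higher and 0 to 3 lower, the fewest higher without either WT Tconv array and the fewest lower without either WT Tconv array. For Cd200, which engages an inhibitory receptor on myeloid cells, the Foxp3-KO arrays read 3.31 and 3.30 and the WT Tconv arrays 0.52 and 0.59, which differ by 2.75 ± 0.08 (adjusted p = 0.000106). Pdcd1, PD-1, stood at 4.36 and 3.83 against 2.37 and 2.40 (1.71 ± 0.23, adjusted p = 0.00722, up to 0.057 without either WT Tconv array). Havcr2, TIM-3, measured -0.92 and -2.43 on the Foxp3-KO arrays, was not well above background on either WT Tconv array, and was at least 10.1-fold higher (adjusted p = 0.00599). For Cd200 both Foxp3-KO arrays stood at nearly one level, whereas TIM-3 was higher on replicate 1. Among costimulatory genes, 6 of 16 tested were called higher and 0 lower, with a median difference of 0.22, beside 10.6% and 17.0% of all genes. Cd86, a ligand of CD28 and CTLA-4, stood at 1.24 and 0.98 against -1.18 and -1.03 (2.21 ± 0.17, adjusted p = 0.00132). Icosl, the ligand of ICOS, stood at 0.88 and -0.31 against -2.19 and -1.88 (2.32 ± 0.46, adjusted p = 0.0193, not called in 3 of 20 alternatives, up to 0.111). Over the fits that lacked 1 array there were 1 to 7 higher and 0 to 2 lower, the fewest higher without either WT Tconv array and the most lower without Foxp3-KO replicate 1.

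**Figure D2:**
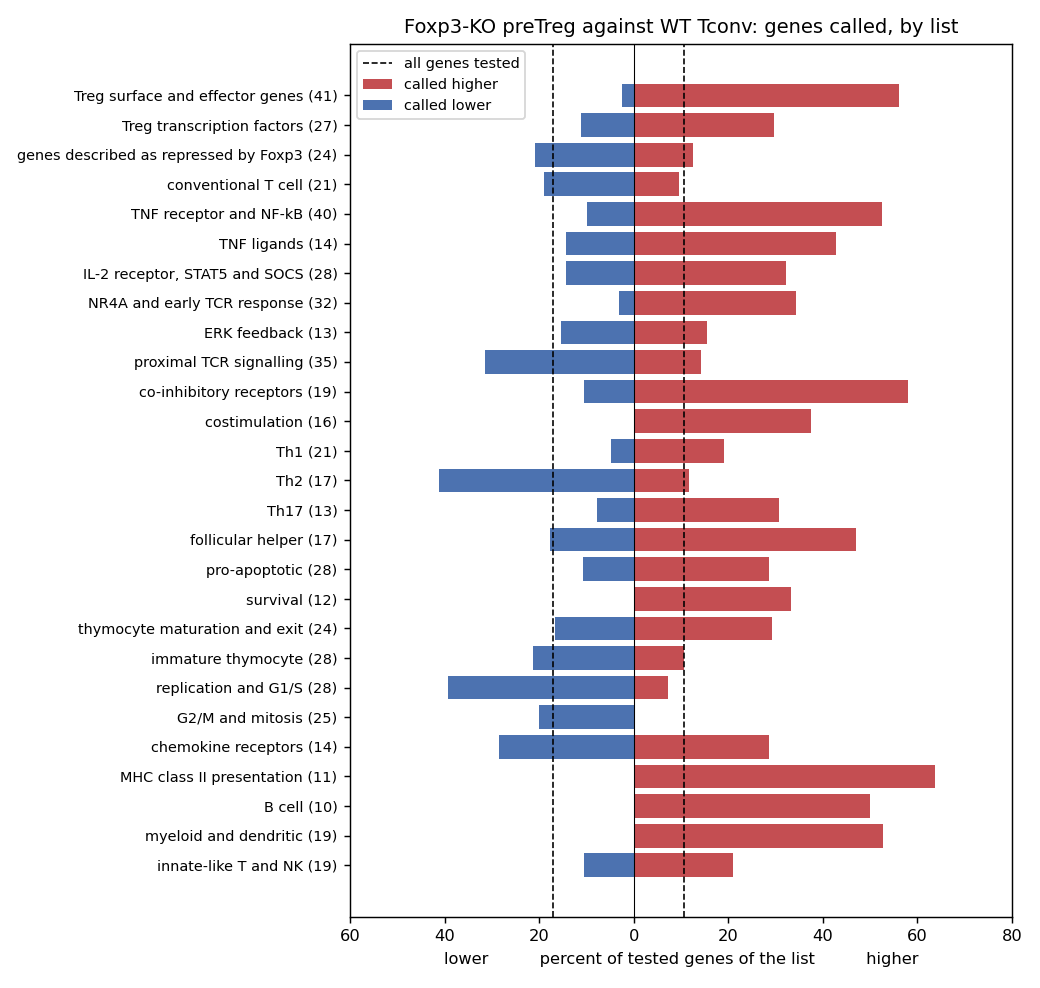
Percent of the tested genes of 27 lists that were called higher (red, to the right) or lower (blue, to the left) in Foxp3-KO preTreg than in WT Tconv, with the number tested in brackets and dashed lines at the 10.6% and 17.0% of all genes. MHC class II, co-inhibitory, Treg surface, myeloid and TNF receptor and NF-kB genes reach farthest to the right, and Th2 and replication genes farthest to the left, among the lists drawn. Chemokine ligand and chromatin genes are not drawn.

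Against WT Tconv, genes that Foxp3 is described to repress did not rise together. In this list, 3 of 24 tested were called higher and 5 lower, with a median difference of -0.24, beside 10.6% and 17.0% of all genes. The range with 1 array removed was 0 to 6 higher and 0 to 7 lower, the fewest higher without either WT Tconv array, the most higher without Foxp3-KO replicate 2 and the fewest lower without either WT Tconv array. The cytokine genes illustrate this. For Il2, the cytokine that Foxp3 is known to repress, the Foxp3-KO arrays read -0.14 and -3.64 and the WT Tconv arrays -3.61 and -4.07, which differ by 1.95 ± 1.05 (adjusted p = 0.209). Il4 stood at -0.42 and -1.37 against 1.30 and 1.32 (-2.21 ± 0.40, adjusted p = 0.0152, up to 0.0902 without either WT Tconv array). Csf2, GM-CSF, stood at -2.08 and -3.70 against -0.94 and -0.98 (-1.93 ± 0.58, adjusted p = 0.0558). Il21 stood at 1.62 and -0.36 against 0.12 and 0.20 (0.47 ± 1.01, adjusted p = 0.742). For Il2 and Il21 the 2 Foxp3-KO arrays were far apart, and replicate 1 carried the higher value. Cd40lg, the CD40 ligand, stood at -3.72 and -2.86 against -2.22 and -2.40 (-0.98 ± 0.27, adjusted p = 0.0449, not called in 12 of 19 alternatives, up to 0.192, well above background on 1 Foxp3-KO array). Pde3b, a phosphodiesterase repressed by Foxp3, stood at 3.45 and 3.81 against 4.05 and 4.04 (-0.42 ± 0.22, adjusted p = 0.197). WT Tconv read far lower than Foxp3-KO for Foxp3, so the comparison with them cannot show a loss of repression. Against WT Treg, the median difference of the list was 0.49. A fit of only the Foxp3-KO and WT Treg arrays called 0 of the list in either direction, and the counts changed when single arrays were left out. In the main fit, higher calls numbered 4 of 24 and lower calls 0, where all genes gave 3.82% and 3.21%. These were Cd40lg, at 2.67 ± 0.27 (adjusted p = 0.0082, not called in 2 of 19 alternatives, up to 0.0978), Pde3b, at 1.37 ± 0.22 (adjusted p = 0.0242, not called in 8 of 20 alternatives, up to 0.103), Il21, at 5.38 ± 1.01 (adjusted p = 0.0368, not called in 9 of 20 alternatives, up to 0.178), and Tnfsf11, at 0.68 ± 0.11 (adjusted p = 0.0284, not called in 9 of 20 alternatives, up to 0.162).

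Genes of conventional T cells were called about as often as all genes. Among them, 2 of 21 tested were called higher and 4 lower, with a median difference of -0.42, beside 10.6% and 17.0% of all genes. Dropping each array in turn gave 0 to 2 higher and 1 to 7 lower, the fewest higher without either WT Tconv array, the fewest lower without either WT Tconv array and the most lower without Nr4a-TKO replicate 1 or Nr4a-TKO replicate 2. Il6ra, the IL-6 receptor, measured 4.29 and 4.45 on the Foxp3-KO arrays and 5.79 and 5.75 on the WT Tconv arrays, a difference of -1.40 ± 0.09 (adjusted p = 0.000822). Igfbp4, an insulin-like growth factor binding protein, stood at -0.59 and -0.04 against 2.11 and 2.05 (-2.39 ± 0.32, adjusted p = 0.00719, up to 0.0568 without either WT Tconv array). Klf3 stood at 4.56 and 4.66 against 3.83 and 3.83 (0.78 ± 0.11, adjusted p = 0.00893, up to 0.0675 without either WT Tconv array). The factors of naive T cells did not pass. For Lef1, a Wnt pathway factor, the Foxp3-KO arrays read 6.43 and 6.96 and the WT Tconv arrays 7.48 and 7.53, which differ by -0.81 ± 0.26 (adjusted p = 0.0697). Tcf7, its relative TCF-1, stood at 4.12 and 4.35 against 4.41 and 4.59 (-0.27 ± 0.17, adjusted p = 0.269). Satb1, a chromatin organiser of thymocytes, stood at 5.92 and 6.57 against 7.15 and 7.18 (-0.92 ± 0.28, adjusted p = 0.0598). For Lef1 and Satb1 both Foxp3-KO arrays were below both WT Tconv arrays, replicate 1 the lower.

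Helper lineage genes split by lineage and by replicate. The shares of all genes, 10.6% higher and 17.0% lower, apply to each list here. Of Th1 genes, 4 of 21 tested were called higher and 1 lower, with a median difference of 0.28, and 15 of the 21 were more than 2-fold higher on replicate 1 than on replicate 2. When 1 array was removed at a time, there were 0 to 13 higher and 0 to 11 lower, the fewest higher without either WT Tconv array, the most higher without Foxp3-KO replicate 2 and the most lower without Foxp3-KO replicate 1. For Ifng, interferon gamma, the Foxp3-KO arrays read 2.61 and -2.21 and the WT Tconv arrays -1.31 and -1.41, which differ by 1.56 ± 1.42 (adjusted p = 0.433). Tbx21, T-bet, stood at 2.33 and -0.14 against 2.01 and 1.98 (-0.91 ± 0.73, adjusted p = 0.382). Cxcr3, a chemokine receptor of Th1 cells, stood at 4.02 and 0.89 against 2.96 and 2.90 (-0.48 ± 0.92, adjusted p = 0.716). Replicate 1 lay above WT Tconv and replicate 2 below it in all 3. Without replicate 1, Ifng differed by -0.85, and without replicate 2, Cxcr3 differed by 1.09. Eomes, the factor related to T-bet, stood at 1.34 and -1.36 against -3.05 and -2.99 (3.01 ± 0.82, adjusted p = 0.044, not called in 12 of 20 alternatives, up to 0.17). Of Th2 genes, 2 of 17 tested were called higher and 7 lower, with a median difference of -0.28. Refitting without single arrays gave 1 to 4 higher and 3 to 8 lower, the fewest higher without WT Tconv replicate 1 or WT Tconv replicate 2 or Foxp3-KO replicate 1, the most higher without Foxp3-KO replicate 2 and the fewest lower without either WT Tconv array. Ccr4, a chemokine receptor of Th2 and regulatory T cells, stood at -0.40 and -0.80 against 1.30 and 1.19 (-1.84 ± 0.18, adjusted p = 0.00301). Ecm1, extracellular matrix protein 1, stood at 5.74 and 5.55 against 3.48 and 3.50 (2.16 ± 0.12, adjusted p = 0.000465). For Il1rl1, the IL-33 receptor ST2, the Foxp3-KO arrays read 0.44 and -3.57 and the WT Tconv arrays -2.96 and -3.23, which differ by 1.53 ± 1.18 (adjusted p = 0.361). In Th17 genes, 4 of 13 tested were called higher and 1 lower, with a median difference of 0.32. Omitting 1 array at a time gave 2 to 7 higher and 1 to 4 lower, the fewest higher without either WT Tconv array, the most higher without Foxp3-KO replicate 2 and the most lower without Foxp3-KO replicate 1. Ahr, the aryl hydrocarbon receptor, stood at 2.25 and 1.44 against 0.08 and 0.06 (1.77 ± 0.26, adjusted p = 0.00847, up to 0.0621 without either WT Tconv array). Follicular helper genes had more increases than decreases. Of these, 8 of 17 tested were called higher and 3 lower, with a median difference of 0.95. These counts ran, with 1 array left out, from 3 to 9 higher and 1 to 5 lower, the fewest higher without either WT Tconv array, the fewest lower without either WT Tconv array and the most lower without Foxp3-KO replicate 1. For Bcl6, the factor of follicular helper cells, the Foxp3-KO arrays read 4.16 and 4.26 and the WT Tconv arrays 2.22 and 2.09, which differ by 2.06 ± 0.20 (adjusted p = 0.00291). Il6st, the shared IL-6 receptor subunit gp130, stood at 2.97 and 3.07 against 1.88 and 1.83 (1.17 ± 0.08, adjusted p = 0.000791).

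Genes of cell death and survival both contained increases. Of pro-apoptotic genes, 8 of 28 tested were called higher and 3 lower, with a median difference of 0.23, beside 10.6% and 17.0% of all genes. With 1 array left out there were 4 to 10 higher and 2 to 4 lower, the fewest higher without either WT Tconv array. For Pmaip1, the BH3-only protein NOXA, the Foxp3-KO arrays read 0.68 and -0.04 and the WT Tconv arrays -4.02 and -3.28, which differ by 3.97 ± 0.34 (adjusted p = 0.00181, well above background on 1 WT Tconv array). Casp4, an inflammatory caspase, stood at 3.82 and 2.45 against -1.66 and -1.81 (4.87 ± 0.42, adjusted p = 0.00185). Fas, the death receptor, stood at 3.80 and 3.95 against 2.92 and 2.84 (0.99 ± 0.10, adjusted p = 0.00274). The BH3-only genes tied to thymic deletion did not pass. Bcl2l11, which encodes BIM, stood at -1.28 and -1.05 against -1.94 and -1.68 (0.64 ± 0.22, adjusted p = 0.084). Bbc3, which encodes PUMA, stood at 2.46 and 2.79 against 3.13 and 3.14 (-0.51 ± 0.27, adjusted p = 0.2). In survival genes, 4 of 12 tested were called higher and 0 lower, with a median difference of 0.30. Birc3, an inhibitor of apoptosis and NF-kB target, stood at 1.51 and 1.45 against 0.40 and 0.12 (1.22 ± 0.14, adjusted p = 0.00492). Bcl2a1d, an A1 family member, stood at 5.38 and 4.94 against 4.17 and 4.17 (0.99 ± 0.14, adjusted p = 0.0085, up to 0.0641 without either WT Tconv array). Mcl1 stood at 6.22 and 6.44 against 5.85 and 5.91 (0.45 ± 0.10, adjusted p = 0.0296, not called in 8 of 20 alternatives, up to 0.156). Leaving out single arrays gave 1 to 4 higher and 0 to 1 lower, the fewest higher without either WT Tconv array and the most lower without Nr4a-TKO replicate 1 or Nr4a-TKO replicate 2. Bcl2a1d has close copies in the mouse genome, so its probe may read more than 1 of them.

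Maturation genes held increases. Of genes of thymocyte maturation and exit, 7 of 24 tested were called higher and 4 lower, with a median difference of 0.01, where all genes gave 10.6% and 17.0%. Over the fits that lacked 1 array there were 1 to 7 higher and 0 to 4 lower, the fewest higher without either WT Tconv array and the fewest lower without either WT Tconv array. S1pr1, the sphingosine 1-phosphate receptor used to leave the thymus, measured 4.76 and 4.76 on the Foxp3-KO arrays and 3.81 and 3.81 on the WT Tconv arrays, a difference of 0.95 ± 0.06 (adjusted p = 0.000822). Ccr7, the receptor for medullary chemokines, stood at 6.91 and 7.27 against 7.07 and 7.19 (-0.04 ± 0.25, adjusted p = 0.91). In immature thymocyte genes, 3 of 28 tested were called higher and 6 lower, with a median difference of -0.06, shares near those of all genes. The range with 1 array removed was 1 to 3 higher and 1 to 7 lower, the fewest higher without either WT Tconv array and the fewest lower without either WT Tconv array. For Rag1, a recombinase subunit, the Foxp3-KO arrays read -1.12 and 1.18 and the WT Tconv arrays -1.43 and -1.53, which differ by 1.51 ± 0.86 (adjusted p = 0.229). Dntt, terminal transferase, stood at 3.29 and 3.74 against 4.11 and 4.12 (-0.60 ± 0.36, adjusted p = 0.258). Cd8a, a CD8 chain, stood at -0.94 and -0.18 against -1.29 and -1.08 (0.62 ± 0.35, adjusted p = 0.231). Among genes well above background on both Foxp3-KO arrays, Rag1 had the largest gap in favour of replicate 2. The summed signal of 10 CD8 and double-positive genes was 29.4 and 38.5 on the Foxp3-KO arrays and 35.5 and 34.1 on the WT Tconv arrays, so the groups overlapped, and the part of such cells in these results was not tested. Of those genes, 0 of 10 tested were called higher and 0 lower, with a median difference of 0.24.

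Several cell cycle genes were lower than in WT Tconv. Of replication and G1/S genes, 2 of 28 tested were called higher and 11 lower, with a median difference of -0.30, beside 10.6% and 17.0% of all genes and a median of -0.12. Dropping each array in turn gave 1 to 3 higher and 2 to 11 lower, the fewest higher without either WT Tconv array and the fewest lower without WT Tconv replicate 1. Median scaling gave 21 lower. For Mcm3, a subunit of the replicative helicase, the Foxp3-KO arrays read 4.07 and 4.06 and the WT Tconv arrays 4.73 and 4.75, which differ by -0.67 ± 0.06 (adjusted p = 0.00274). Cdt1, a licensing factor, stood at 3.56 and 3.34 against 4.31 and 4.24 (-0.83 ± 0.10, adjusted p = 0.00501, up to 0.0512 without 1 WT Tconv array). Ccne1, cyclin E1, stood at 2.20 and 2.27 against 2.97 and 2.91 (-0.70 ± 0.07, adjusted p = 0.00317). The decreases were under 1 log2 unit in these 3 genes. Cdkn1a, the cyclin-dependent kinase inhibitor p21, measured -2.28 and -2.45 on the Foxp3-KO arrays, was not well above background on either WT Tconv array, and was at least 6.27-fold higher (adjusted p = 0.00133). Of mitosis genes, 0 of 25 tested were called higher and 5 lower, with a median difference of -0.25. Their share called lower was near the 17.0% of all genes, so these counts alone show no decrease of the mitosis list. When 1 array was removed at a time, there were 0 higher and 1 to 10 lower, the fewest lower without either WT Tconv array and the most lower without Foxp3-KO replicate 2. For Kif23, a kinesin of cytokinesis, the Foxp3-KO arrays read -0.49 and -0.08 and the WT Tconv arrays 1.52 and 1.40, which differ by -1.74 ± 0.17 (adjusted p = 0.00275). Mki67, which encodes Ki-67, stood at 4.38 and 4.58 against 4.89 and 4.89 (-0.41 ± 0.10, adjusted p = 0.0292, not called in 8 of 20 alternatives, up to 0.143). Plk1, a mitotic kinase, stood at 2.63 and 2.76 against 3.02 and 3.03 (-0.33 ± 0.08, adjusted p = 0.032, not called in 8 of 20 alternatives, up to 0.158). Ccnb1, cyclin B1, stood at 1.47 and 1.48 against 1.54 and 1.57 (-0.08 ± 0.06, adjusted p = 0.408).

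Against WT Treg, cell cycle genes were called higher. Of 12810 genes, 900 (7.03%) were called between Foxp3-KO and WT Treg, 489 higher (3.82%) and 411 lower (3.21%). This count rested on the pooled spread: it was 8 in a fit of only these 4 arrays, 274 without either WT Tconv array, 349 without WT Treg replicate 1 and 90 without WT Treg replicate 2. Among mitosis genes 20 of 25 were higher and 0 lower, with a median of 1.05, and 5 to 20 with 1 array left out. Mki67 measured 3.55 and 3.57 in WT Treg and differed from it by 0.92 ± 0.10 (adjusted p = 0.00891, not called in 2 of 20 alternatives, up to 0.0999), and Ccnb1 measured 0.35 and 0.29 and differed by 1.15 ± 0.06 (adjusted p = 0.00282, not called in 1 of 20 alternatives, up to 0.0768). In both genes the Foxp3-KO arrays lay between WT Treg and WT Tconv. In a fit of only the Foxp3-KO and WT Treg arrays, 0 mitosis and 0 replication genes were called higher. Of replication genes 8 of 28 were higher and 0 lower, and 2 to 7 with 1 array left out. Of surface and effector genes of regulatory T cells 1 was higher and 12 were lower, and 2 to 25 were lower with 1 array left out. Tnfrsf4 measured 7.69 and 7.71 in WT Treg and differed from it by -1.01 ± 0.11 (adjusted p = 0.0106, not called in 2 of 20 alternatives, up to 0.0941). In TNF receptor and NF-kB genes 0 were higher and 8 lower, and 0 to 8 were lower with 1 array left out. Some markers of other thymocytes were higher than in WT Treg as well. Of CD8 and double-positive genes 3 of 10 were higher and 0 lower, with a median of 1.45, and their summed signal was 22.9 and 18.7 in WT Treg. Of immature thymocyte genes 5 of 28 were higher and 0 lower, and innate-like T and NK genes had a median of 2.28 with 4 of 19 higher. The part of these cells in the cell cycle values was not tested. The comparisons with WT Tconv and with WT Treg share the Foxp3-KO arrays.

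**Figure D3:**
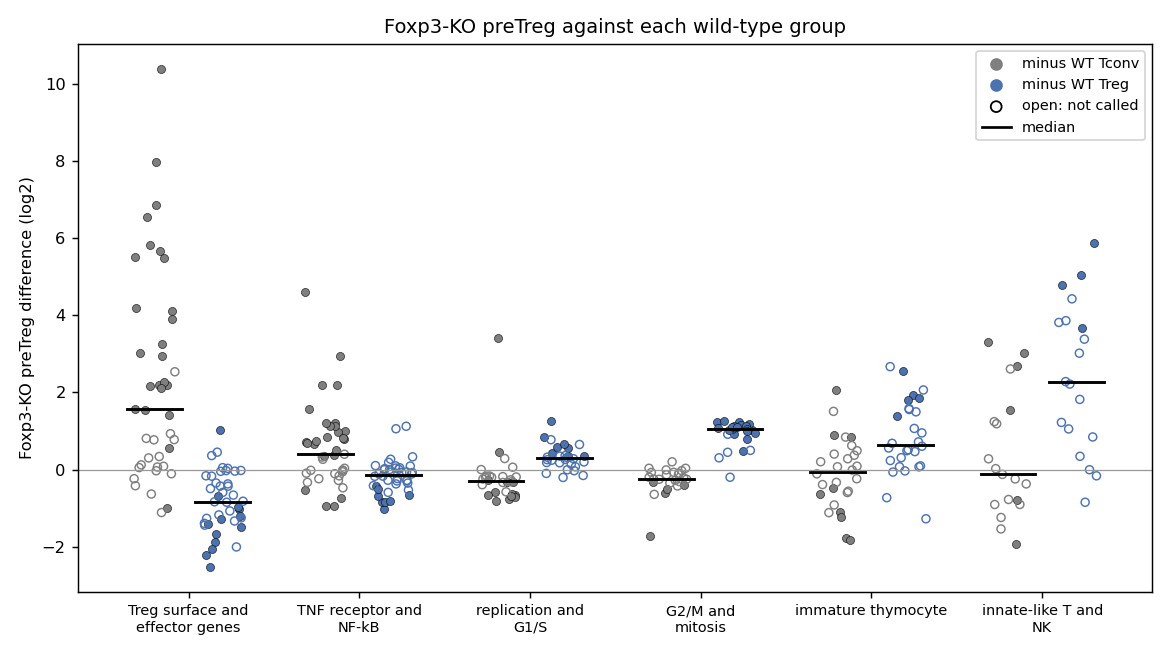
Log2 difference of Foxp3-KO preTreg from WT Tconv (grey) and from WT Treg (blue) for the tested genes of 6 lists, with filled points for called genes, open points for the others and a black bar at each median. The median of the mitosis genes is -0.25 against WT Tconv and 1.05 against WT Treg, and that of the Treg surface genes 1.57 and -0.84.

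Migration and adhesion genes changed in both directions. Of chemokine receptors, 4 of 14 tested were called higher and 4 lower, with a median difference of -0.04, beside 10.6% and 17.0% of all genes. Refitting without single arrays gave 1 to 8 higher and 2 to 5 lower, the fewest higher without either WT Tconv array, the most higher without Foxp3-KO replicate 2 and the fewest lower without either WT Tconv array. Ccr6, Ccr4, Ccr10 and Ccr7 are given above. Of lipid and other chemoattractant receptors, 5 of 16 tested were called higher and 3 lower, with a median difference of 0.45. Ptger2, a prostaglandin E2 receptor, measured 0.49 and 0.03 on the Foxp3-KO arrays, was not well above background on either WT Tconv array, and was at least 29.8-fold higher (adjusted p = 0.000204). Ptger4, another of its receptors, stood at 1.75 and 1.73 against 0.83 and 0.67 (0.99 ± 0.12, adjusted p = 0.00596, up to 0.0524 without 1 WT Tconv array). Omitting 1 array at a time gave 2 to 6 higher and 0 to 3 lower, the fewest higher without WT Tconv replicate 2 and the fewest lower without either WT Tconv array. Of integrins and adhesion genes, 8 of 24 tested were called higher and 2 lower, with a median difference of 0.42. Itgb3, the integrin beta 3 chain, stood at 3.66 and 4.29 against 5.66 and 5.63 (-1.67 ± 0.24, adjusted p = 0.00837, up to 0.0626 without either WT Tconv array). Alcam, an adhesion molecule that binds CD6, measured -1.34 and -2.38 on the Foxp3-KO arrays, was not well above background on either WT Tconv array, and was at least 8.86-fold higher (adjusted p = 0.00564). These counts ran, with 1 array left out, from 2 to 9 higher and 0 to 3 lower, the fewest higher without either WT Tconv array and the fewest lower without either WT Tconv array.

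Purine, TGF-beta and Notch genes were smaller groups. Of purine ectoenzymes and adenosine genes, 4 of 9 tested were called higher and 0 lower, with a median difference of 1.12. With 1 array left out there were 1 to 6 higher and 0 lower, the fewest higher without WT Tconv replicate 1. Nt5e, CD73, which makes adenosine, stood at 2.95 and 1.99 against 1.12 and 0.98 (1.42 ± 0.34, adjusted p = 0.0315, not called in 5 of 20 alternatives, up to 0.145). P2rx7, the ATP-gated channel, stood at 2.75 and 2.38 against 1.26 and 1.20 (1.34 ± 0.14, adjusted p = 0.0039). Of TGF-beta signalling genes, 5 of 17 tested were called higher and 2 lower, with a median difference of 0.16, beside 10.6% and 17.0% of all genes. Leaving out single arrays gave 2 to 4 higher and 0 to 2 lower, the fewest higher without WT Tconv replicate 1 and the fewest lower without either WT Tconv array. Tgfbr1, the type I receptor, stood at 2.21 and 2.29 against 1.18 and 1.26 (1.03 ± 0.13, adjusted p = 0.00574, up to 0.0521 without 1 WT Tconv array). Smurf1, a ligase that targets the pathway, stood at -0.09 and 0.28 against 0.71 and 0.77 (-0.65 ± 0.14, adjusted p = 0.0224, not called in 4 of 20 alternatives, up to 0.123). In Notch genes, 0 of 9 tested were called higher and 0 lower, with a median difference of -0.15. Notch1 stood at -1.13 and -1.48 against -1.05 and -0.90 (-0.33 ± 0.14, adjusted p = 0.127). Over the fits that lacked 1 array there were 0 to 2 higher and 0 to 2 lower, the most higher without Foxp3-KO replicate 2 and the most lower without Foxp3-KO replicate 1.

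Chromatin genes held many decreases. Of DNA methylation and chromatin genes, 3 of 18 tested were called higher and 8 lower, with a median difference of -0.21, beside 10.6% and 17.0% of all genes. The range with 1 array removed was 1 to 4 higher and 2 to 7 lower, the fewest higher without either WT Tconv array and the fewest lower without either WT Tconv array. Dnmt3b, a de novo DNA methyltransferase, stood at 1.14 and 1.29 against 2.12 and 2.03 (-0.86 ± 0.09, adjusted p = 0.00286). Tet2, an enzyme that oxidises methylcytosine, stood at 2.85 and 3.0 against 2.25 and 2.21 (0.70 ± 0.08, adjusted p = 0.00487). Kmt2d, a histone methyltransferase, stood at 0.07 and 0.27 against 1.19 and 1.38 (-1.11 ± 0.14, adjusted p = 0.00555). Hdac9, a class IIa histone deacetylase, measured -1.83 and -2.37 on the Foxp3-KO arrays, was not well above background on either WT Tconv array, and was at least 7.52-fold higher (adjusted p = 0.00668, up to 0.0538 without either WT Tconv array). In glycolysis genes, 5 of 20 tested were called higher and 1 lower, with a median difference of 0.09, beside 10.6% and 17.0% of all genes. For Slc16a3, the lactate exporter MCT4, the Foxp3-KO arrays read 2.36 and 2.33 and the WT Tconv arrays -0.16 and -0.17, which differ by 2.51 ± 0.13 (adjusted p = 0.000385). Tpi1, triosephosphate isomerase, stood at 3.76 and 3.55 against 2.64 and 2.74 (0.96 ± 0.10, adjusted p = 0.00329). Dropping each array in turn gave 2 to 7 higher and 0 lower, the fewest higher without either WT Tconv array. Of cholesterol synthesis genes, 2 of 21 tested were called higher and 3 lower, with a median difference of 0.13, shares near those of all genes. When 1 array was removed at a time, there were 0 to 2 higher and 0 to 2 lower, the fewest lower without either WT Tconv array. In interferon response genes, 10 of 26 tested were called higher and 1 lower, with a median difference of 0.26. Oas1a, an antiviral synthetase, stood at 4.60 and 4.41 against 3.61 and 3.57 (0.92 ± 0.10, adjusted p = 0.00444). Ifi44 stood at 0.94 and 1.27 against 0.07 and 0.08 (1.03 ± 0.18, adjusted p = 0.0129, up to 0.0819 without either WT Tconv array). Refitting without single arrays gave 1 to 12 higher and 0 to 2 lower, the fewest higher without either WT Tconv array and the most lower without Foxp3-KO replicate 2. Of genes that answer handling stress, 2 of 16 tested were called higher and 0 lower, with a median difference of 0.13. The share called higher was near that of all genes. Fos stood at 0.30 and -0.21 against -0.62 and -0.78 (0.74 ± 0.23, adjusted p = 0.0587). Omitting 1 array at a time gave 0 to 4 higher and 0 to 1 lower, the fewest higher without WT Tconv replicate 2, the most higher without Foxp3-KO replicate 2 and the most lower without either Foxp3-KO array.

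Markers of other cells were read because they bear on the genes above. The values that follow are log2 levels, except that summed signals are linear with the 75th percentile of the array at 1. Of B cell genes, 5 of 10 tested were called higher and 0 lower, with a median difference of 2.96, and 7 of them were more than 2-fold higher on replicate 1. These counts ran, with 1 array left out, from 0 to 6 higher and 0 lower, the fewest higher without WT Tconv replicate 1 or WT Tconv replicate 2 or Foxp3-KO replicate 1. The summed signal of 14 B cell genes was 18.4 and 5.01 on the Foxp3-KO arrays and 2.25 and 2.3 on the WT Tconv arrays. It was 6.23 and 4.61 on the WT Treg arrays, so it was raised there too. Ms4a1, the B cell antigen CD20, measured 1.63 and -2.45 and was not well above background in WT Tconv (adjusted p = 0.0717). Of the defining markers, Pax5 and Blk were not well above background on any of the 4 arrays, and Cd79a and Ebf1 only on Foxp3-KO replicate 1. Of plasma cell genes, 3 of 6 tested were called higher and 0 lower, with a median difference of 0.93. Their sums were 52.8 and 29.2 on the Foxp3-KO arrays, 25.8 and 24.8 on the WT Tconv arrays and 29.5 and 32.8 on the WT Treg arrays. With 1 array left out there were 0 to 4 higher and 0 lower, the fewest higher without either WT Tconv array. Jchain, the joining chain of polymeric immunoglobulin, measured 4.14 and 1.22 on the Foxp3-KO arrays, was not well above background on either WT Tconv array, and was at least 152-fold higher (adjusted p = 0.0114, up to 0.0764 without either WT Tconv array).

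Myeloid markers behaved in a similar way. Of them, 10 of 19 tested were called higher and 0 lower, with a median difference of 2.61, and 10 were more than 2-fold higher on replicate 1. Leaving out single arrays gave 0 to 14 higher and 0 to 1 lower, the fewest higher without either WT Tconv array and the most lower without Foxp3-KO replicate 2. The summed signal of 25 genes was 517 and 419 on the Foxp3-KO arrays and 411 and 431 on the WT Tconv arrays. Most of that sum came from Siglech, named here after its values were seen, which read 8.27 and 8.20 against 8.38 and 8.45 in log2 units. Gene by gene, 13 of 19 were at least 2-fold above both WT Tconv arrays on both Foxp3-KO arrays, with median differences of 3.03 on replicate 1 and 1.81 on replicate 2. WT Treg shared part of this, with median differences from WT Tconv of 1.02 for myeloid and 0.94 for B cell genes. Against WT Treg, 0 of 19 myeloid and 0 of 10 B cell genes were called in either direction, beside 3.82% higher and 3.21% lower of all genes. The medians of that comparison were 0.68 and 0.99. C1qa, a complement component of macrophages, measured 1.48 and -1.54 on the Foxp3-KO arrays, was not well above background on either WT Tconv array, and was at least 31.6-fold higher (adjusted p = 0.0118, up to 0.0764 without either WT Tconv array). C1qc, its partner chain, measured 2.55 and -0.81 on the Foxp3-KO arrays, was not well above background on either WT Tconv array, and was at least 58.9-fold higher (adjusted p = 0.0161, not called in 3 of 19 alternatives, up to 0.0937). Lyz2, the myeloid lysozyme, stood at 0.94 and -1.04 against -4.40 and -4.21 (4.26 ± 0.72, adjusted p = 0.0127, up to 0.0809 without either WT Tconv array, well above background on 1 WT Tconv array). Itgax, CD11c, stood at 1.93 and 1.03 against -2.24 and -2.21 (3.70 ± 0.63, adjusted p = 0.0128, up to 0.0797 without either WT Tconv array). Not all markers rose. Itgam, CD11b, stood at 4.97 and 4.85 against 5.10 and 5.18 and was not called. Csf1r, a receptor of macrophages, stood at 3.37 and 1.58 against 0.44 and 0.26 and was not called either. Spi1 and Xcr1 were not well above background on any of the 4 arrays, and Cd14, Fcgr1 and Fcgr3 only on Foxp3-KO replicate 1. Of MHC class II genes, 7 of 11 tested were called higher and 0 lower, with a median difference of 1.83. Over the fits that lacked 1 array there were 2 to 8 higher and 0 lower, the fewest higher without either WT Tconv array. Their sums were 288 and 211 on the Foxp3-KO arrays and 48.5 and 49.5 on the WT Tconv arrays. WT Treg had sums of 197 and 122, so both Foxp3-KO and both WT Treg arrays lay above WT Tconv. For H2-Aa, a class II chain, the Foxp3-KO arrays read 2.85 and 2.49 and the WT Tconv arrays -1.31 and -1.78, which differ by 4.21 ± 0.54 (adjusted p = 0.00646, up to 0.0538 without 1 WT Tconv array). Ciita, the class II transactivator, measured -2.61 and -0.40 on the Foxp3-KO arrays, was not well above background on either WT Tconv array, and was at least 11.4-fold higher (adjusted p = 0.0238, not called in 5 of 19 alternatives, up to 0.128). Cd74, the invariant chain, stood at 4.92 and 4.37 against 1.43 and 1.49 (3.19 ± 0.43, adjusted p = 0.00721, up to 0.0562 without either WT Tconv array). The part of B cells, plasma cells and myeloid cells in the increases of Lyz1, Ear2, Vcam1, Icosl, Cd86, Irf8 and the class II and chemokine genes was not tested. Of 19 chemokine ligands listed, 8 were not tested. Of the 11 tested, 7 were called higher and 0 lower, with a median difference of 2.69. Here and in the marker lists above, genes not well above background in WT Tconv were tested only where Foxp3-KO was. The filter therefore partly sets these counts and medians. The range with 1 array removed was 0 to 9 higher and 0 lower, the fewest higher without either WT Tconv array. Cxcl10, an interferon-induced chemokine, stood at 2.20 and 0.47 against -2.24 and -2.74 (3.82 ± 0.54, adjusted p = 0.00786, up to 0.0616 without either WT Tconv array). Ccl17, a ligand of CCR4, stood at 0.24 and 1.04 against -3.41 and -3.44 (4.06 ± 0.73, adjusted p = 0.0148, up to 0.0875 without either WT Tconv array). In bulk RNA, fewer cells of a type and less RNA per cell cannot be told apart.

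**Figure D4:**
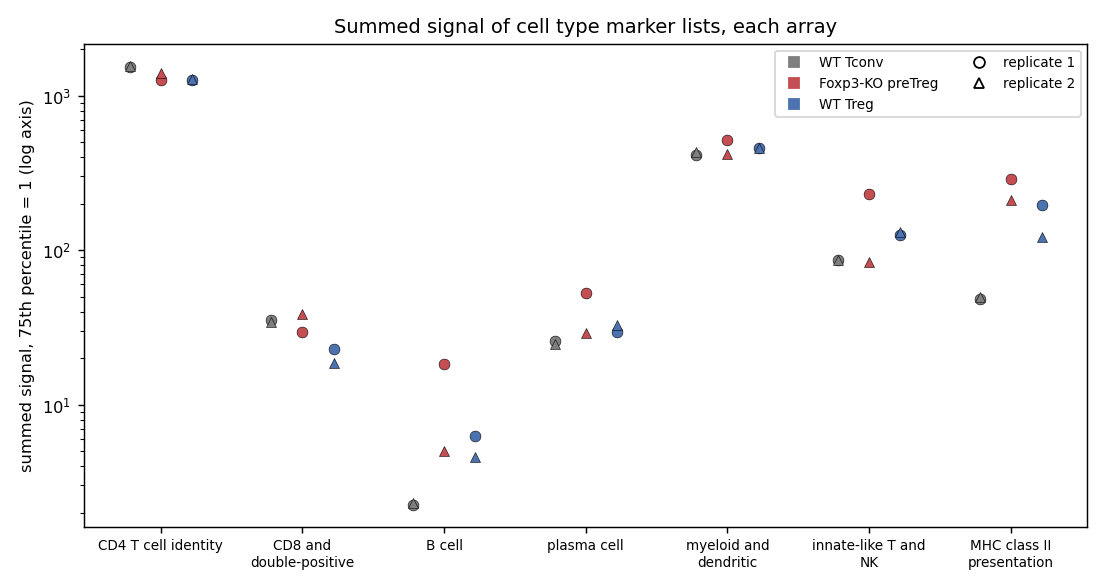
Summed linear signal of 7 marker lists (75th percentile of the array = 1, log axis) on the WT Tconv (grey), Foxp3-KO preTreg (red) and WT Treg (blue) arrays, with circles for replicate 1 and triangles for replicate 2. Foxp3-KO replicate 1 stands at 18.4 for B cell genes and 231 for innate-like T and NK genes, and replicate 2 at 5.01 and 83.9.

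Innate-like T and NK genes, like the Th1 genes, separated the replicates widely. Of these, 4 of 19 tested were called higher and 2 lower, with a median difference of -0.13, and 15 of 19 were more than 2-fold higher on replicate 1. Dropping each array in turn gave 0 to 9 higher and 1 to 8 lower, the fewest higher without either WT Tconv array, the most higher without Foxp3-KO replicate 2, the fewest lower without either WT Tconv array and the most lower without Foxp3-KO replicate 1. Sums over 20 genes were 231 and 83.9 on the Foxp3-KO arrays and 86.6 and 86.7 on the WT Tconv arrays. The sum on replicate 2 hides opposite moves, since 9 of 19 genes were at least 2-fold below both WT Tconv arrays there and 5 at least 2-fold above, with a median difference of -0.86 against 1.42 on replicate 1. Il2rb, given above, belongs to this list and was higher on both arrays. Zbtb16, the factor PLZF of innate-like T cells, measured 0.07 and 0.39 on the Foxp3-KO arrays and 2.20 and 2.12 on the WT Tconv arrays, a difference of -1.93 ± 0.23 (adjusted p = 0.00551). Klrb1c, the receptor NK1.1, stood at 1.51 and -1.61 against 1.46 and 1.53 (-1.54 ± 0.94, adjusted p = 0.259). Klrc1, the receptor NKG2A, stood at 1.73 and -3.34 against 0.45 and 0.42 (-1.24 ± 1.62, adjusted p = 0.587). PLZF was lower on both arrays, while both receptors lay far below WT Tconv on replicate 2, and on replicate 1 Klrc1 lay above it and Klrb1c at its level. The part of innate-like T and NK cells in the Th1 and chemokine values, and in the decreases of Il13, Il4 and Il17rb, was not tested. Gamma-delta T cell genes had 0 called higher and 0 lower of 4 tested, with sums of 12.9 and 2.74 on the Foxp3-KO arrays and 10.2 and 9.69 on the WT Tconv arrays. When 1 array was removed at a time, there were 0 to 1 higher and 0 to 2 lower, the most higher without Foxp3-KO replicate 2 and the most lower without Foxp3-KO replicate 1. Granulocyte and mast cell sums were 193 and 203 on the Foxp3-KO arrays and 260 and 279 on the WT Tconv arrays, with Csf3r, named after its values were seen, making up most of the signal (7.58 and 7.65 against 8.01 and 8.12 in log2 units). Stromal sums were 11.4 and 10.6 on the Foxp3-KO arrays and 12.9 and 13.1 on the WT Tconv arrays, and red cell and platelet sums 0.925 and 0.351 on the Foxp3-KO arrays and 0.307 and 0.266 on the WT Tconv arrays. Of the stromal genes, 1 of 9 tested were called higher and 0 lower, with a median difference of -0.13, and that gene was Epcam (-2.34 and -1.87 against -4.24 and -3.47, adjusted p = 0.0212, not called in 5 of 19 alternatives, up to 0.108, well above background on 1 WT Tconv array).

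Among genes well above background on both Foxp3-KO arrays, several of the largest gaps were in effector genes. Of all genes tested, replicate 1 was more than 2-fold above replicate 2 for 582 genes (4.54%) and below it for 170 (1.33%). Gzmc, granzyme C, measured 3.85 and -2.65, a gap of 6.50 log2 units, while WT Tconv read -2.07 and -2.05. Ccl4 and Ccl5, chemokines of effector lymphocytes, measured 2.42 and -1.57 and 6.28 and 2.30 on replicates 1 and 2, against -1.21 and -1.37 and 1.49 and 1.49 in WT Tconv. For each of these 3 genes replicate 2 lay within 1 log2 unit of WT Tconv. The other genes of the 10 widest gaps in this direction were Klrc1 (5.07), Ifng (4.82), Ccl6 (4.40), Ifitm1 (4.17), Ms4a1 (4.08), Il1rl1 (4.01) and 1810009J06Rik (3.97). In the other direction, the gaps of genes above background on both arrays were smaller. Replicate 1 minus replicate 2 was -2.29 for Rag1, -2.21 for Ciita, -2.08 for Slc3a1, -1.87 for Azin2 and -1.85 for Plet1. It was -1.79 for Vill, -1.79 for Rag2, -1.77 for Mgat5, -1.76 for Olfr18 and -1.73 for Pomgnt2. Both recombinase genes, Rag1 and Rag2, were thus higher on replicate 2. Genes not well above background on both arrays had wider gaps in this direction, such as the granulocyte genes S100a9 (-6.24 and -1.49) and S100a8 (-6.01 and -1.61). WT Tconv read -1.68 and -1.79 for S100a9 and -2.67 and -2.81 for S100a8. In the scatter of the 2 arrays, Lrrc32 lies near the diagonal, but other regulatory T cell genes do not. Of 41 tested surface and effector genes, 13 were at least 2-fold higher on replicate 1 and 0 on replicate 2. Most innate-like genes lie well below the diagonal.

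**Figure D5:**
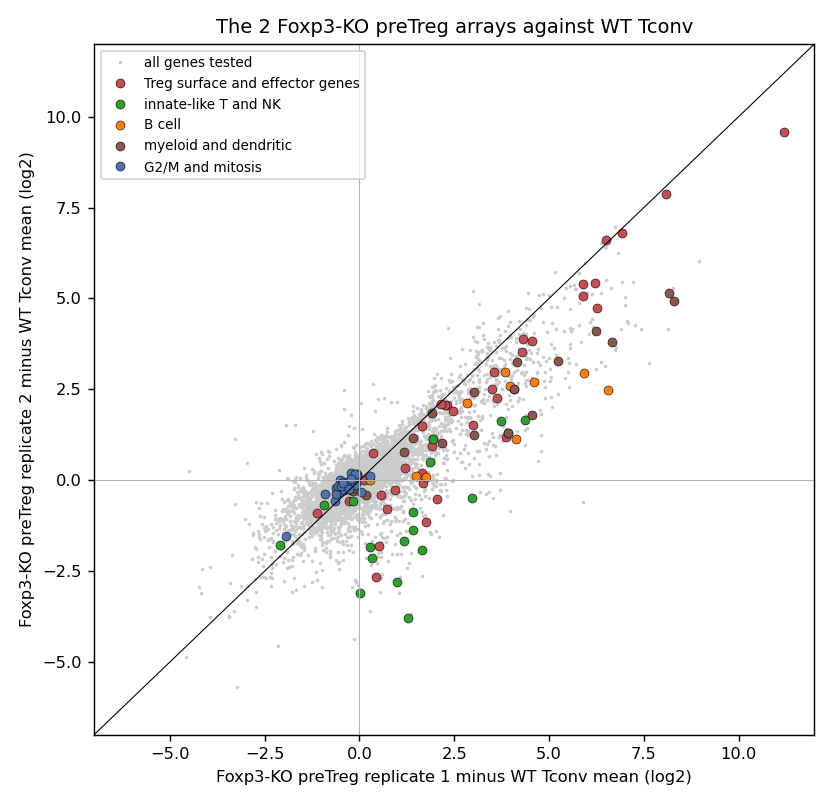
Log2 difference from the WT Tconv mean of Foxp3-KO preTreg replicate 1 (horizontal) and replicate 2 (vertical) for the 12810 genes tested (grey) and the members of 5 lists (coloured), with the line of equality. Penk and Lrrc32 lie far out on both axes. More than 1 log2 unit below the line lie 15 of 19 innate-like T and NK genes and 13 of 41 Treg surface and effector genes.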

How the data were processed

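RNA of sorted mouse thymocytes was labelled with Cy3 and hybridised to Agilent arrays, 1 per sample. The scanner files hold the processed Cy3 intensity of each spot, background-subtracted per the file headers and not normalized between arrays. Agilent Feature Extraction 10.7.1.1 is named in the submitters' processing notes. A matrix of linear intensity, scaled by the 75th percentile, was also deposited by the authors and served as an alternative. Of 62976 spots, 3671 controls and those marked as outliers were left out, and 0 were saturated. The log2 intensity minus the 75th percentile of the array was averaged per probe. Symbols came from the RefSeq accessions of the probes, which named 28026 probes and left 27655 unnamed. The brightest probe stood for a gene. Other probes pointed the other way for Camp, Kdr, Uty, Csf1r, Itgam and Ccnb1. Some pointed the same way with another size, with differences against WT Tconv from -2.47 to -1.28 for Il17rb and from -1.89 to -0.60 for Kmt2d.

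All 8 arrays were fitted as 4 groups with lmFit and eBayes of limma 3.58.1 (R 4.3.3), with 4 residual degrees of freedom. The design, alternatives and rule for named genes were set with earlier results of these data known, as were the members and the gene lists, which are described by counts and medians without a test. Named genes are the sorting genes, the 15 highest and 15 lowest called differences among genes well above background on all 4 arrays whose groups do not overlap, the 5 largest lower bounds each way, for each list its 4 or fewer members of smallest adjusted p and its defining and opposing members, defining markers of other cell types, and the 10 largest gaps between the Foxp3-KO arrays each way. Nfkbia and Tnfaip3 were added after their values were seen. The labels tie no replicate number to a shared animal or batch, and with 2 arrays a group the numbers were not taken to pair the samples. Across genes, the deviations of same-numbered arrays correlated at r = -0.04 for Foxp3-KO and WT Tconv, 0.19 for Foxp3-KO and WT Treg and 0.24 for Foxp3-KO and Nr4a-TKO. The normexp alternative used the median spot signal. The procedure was tested on simulated data. Promoters are RefSeq windows on GRCm38.p6, and no other coordinates are given because the array was annotated on an older build. Between 48.6% and 52.2% of probes were well above background on the 4 arrays, and 2 arrays a group limit the precision. Values of a few genes are not reported here. Plots were made with matplotlib 3.10.9.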

Additional observations from a re-analysis of the deposited data

How the results depend on the processing

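Alternatives were quantile and median scaling, normexp background correction, the deposited matrix, other filters on dim probes, averaging the probes of each gene, fitting only the arrays compared, an intensity trend, array weights by group, the replicate number as a block and leaving out each array. The count of 3538 genes called against WT Tconv fell to 2167 with no filter on dim probes and to 1767 with only the 4 arrays, and ran from 570 to 4268 with 1 array left out. With the replicate block it was 3253, and 734 against WT Treg. The count of 900 against WT Treg was 399 with no filter, 8 with only the 4 arrays and 357 with array weights, and ran from 90 to 1320 with 1 array left out. At least 2-fold differences under normexp numbered 881 for Foxp3-KO replicate 1, 568 for replicate 2 and 440 for both, against 1556, 1147 and 881 as reported. The cause was not tested, beyond there being fewer samples in the smaller fits and more genes without the filter.

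Of 174 named genes called against WT Tconv, 75 were called in every alternative that gave them a value, and 95 lost the call without WT Tconv replicate 1 and 95 without replicate 2. Directions that turned were those of Kdr with the mean of its probes (0.98) and those of Maf, Ifng and Cxcr3 with 1 Foxp3-KO array left out. Without replicate 1 they were -0.96 for Maf, -0.85 for Ifng and -2.04 for Cxcr3, and without replicate 2 they were 1.72, 3.97 and 1.09. The replicate block ended the call of 6 named genes and made that of 8 others. Signal near background limits the genes given as bounds.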
